A study of Mus musculus with 6 samples.

Results

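Hlf, Mecom, Prdm16, Meis1, Nkx2-3, Zfp467 and Mllt3 are 7 nuclear regulators tied to hematopoietic stem cells, taken by gene symbol from a table of 19938 measured genes. All 7 were found through rows that list a single symbol, and of the 2 rows for Mecom the brighter was kept. The genes were chosen by the difference between knockout and wild-type values in these same arrays, together with their place in stem cell biology. Their differences between the groups are therefore given as a description, without a test.

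The arrays measured RNA from mouse bone marrow cells sorted as lineage-Flk2-c-kit+Sca-1+, the immature fraction in which stem cells are found. One group was 3 arrays labelled p65 wild-type mouse and the other 3 arrays labelled p65 knockout mouse. The titles name no treatment and do not say whether an array holds cells of 1 mouse or of a pool. The series title places the loss of p65, the RelA subunit of NF-κB, in the hematopoietic compartment, and the sources used here do not name the deleting transgene, the age or the strain of the mice. Rela itself, the p65 gene, averaged 7.77 ± 0.22 in the wild-type arrays and 7.39 ± 0.08 in knockout (log2 signal, SD, n = 3 each). The 2 ranges did not overlap, but the difference of -0.39 did not pass over all genes (limma adjusted p = 0.209), and it was -0.51 without wild-type replicate 1 (limma adjusted p = 0.0400). The array thus gives a weak check of the labels, and whether its probes lie in the deleted part is not known.

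Blood stem cells divide rarely and keep a transcription program that is shut down as they commit to a lineage. HLF is a PAR bZIP activator that binds DNA as a dimer and is used to mark the most immature cells. MECOM and PRDM16 are paired members of the PRDM family, with a PR domain and zinc fingers, and loss of either gene in mice depletes stem cells. MEIS1 is a TALE homeodomain protein that binds DNA together with other homeodomain proteins. MLLT3, also named AF9, reads acylated histones and recruits the super elongation and DOT1L complexes, and NKX2-3 and ZFP467 are a homeodomain and a zinc finger protein with less settled roles in blood.

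The sequences before the transcription starts of the 3 members listed first are shown because these genes had the largest differences, and because the deleted protein is a DNA-binding factor. Each is the 250 bases before the start in RefSeq's table for GRCm38.p6, read 5′ to 3′ on the strand of the gene (minus for all 3). Capitals mark matches to the motifs searched on both strands, which were the κB consensus, TGACAG (the MEIS core), TTATGTAA and TTACGTAA (PAR bZIP), GACAAGAT (a core of the MECOM site) and TGACGTCA (the cAMP response element). The Hlf sequence lies at chr11:90390918-90391167. The Mecom sequences lie at chr3:30509760-30510009, before the start of the long form with the PR domain, and at chr3:30013205-30013454, before the start of the short form, and the Prdm16 sequence at chr4:154636874-154637123.
Hlf: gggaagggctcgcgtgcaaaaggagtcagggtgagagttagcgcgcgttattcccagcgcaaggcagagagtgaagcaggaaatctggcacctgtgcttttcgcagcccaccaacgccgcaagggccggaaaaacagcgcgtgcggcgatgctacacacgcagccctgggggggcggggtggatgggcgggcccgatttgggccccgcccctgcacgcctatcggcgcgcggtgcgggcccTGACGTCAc
Mecom, long form: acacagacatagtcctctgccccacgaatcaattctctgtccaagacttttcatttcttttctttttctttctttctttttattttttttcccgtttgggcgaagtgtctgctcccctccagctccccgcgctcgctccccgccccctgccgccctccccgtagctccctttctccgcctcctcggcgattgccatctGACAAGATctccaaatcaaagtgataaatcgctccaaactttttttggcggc
Mecom, short form: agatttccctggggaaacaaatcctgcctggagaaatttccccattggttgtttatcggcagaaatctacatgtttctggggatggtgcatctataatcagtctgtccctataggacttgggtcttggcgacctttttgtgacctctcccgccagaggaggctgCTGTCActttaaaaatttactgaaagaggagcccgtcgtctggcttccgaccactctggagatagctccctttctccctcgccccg
Prdm16: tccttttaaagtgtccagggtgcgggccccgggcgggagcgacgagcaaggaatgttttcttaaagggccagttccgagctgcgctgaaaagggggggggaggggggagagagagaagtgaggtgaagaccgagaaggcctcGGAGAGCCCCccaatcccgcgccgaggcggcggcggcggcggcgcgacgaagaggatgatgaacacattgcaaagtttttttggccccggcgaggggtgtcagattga

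In Hlf, TGACGTCA ended 2 bases before the start, and 1.55% of the 32851 windows of this length in the table hold that word. The long-form window of Mecom held GACAAGAT 45 to 52 bases before the start, a word found in 0.597% of windows, and the short-form window held TGACAG on the opposite strand, found in 15.9%. Prdm16 had the only κB match among the 9 windows of the 7 members, 99 to 108 bases before its start on the opposite strand, against 7.25% of all windows. Mecom and Prdm16 also shared an identical run of 24 bases within the 50 bases after the start of the long form and of Prdm16, which 2 of the 32851 full windows held. The only other match in the 9 windows was TGACAG in 1 of the 2 windows of Mllt3. TTATGTAA and TTACGTAA, found in 0.819% and 0.113% of all windows, were in none of the 9. These matches describe letters in short windows and were not tested as binding sites.

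Facts on the arrays bear on every value below. Wild-type replicate 1 stood apart, with an SD of its log2 values of 2.03 against 2.22 to 2.29 in the other arrays and correlations with them of 0.951 to 0.963, against up to 0.9945 among the rest. Median signal was 5.81 to 5.98 in the wild-type arrays and 5.72 to 5.75 in knockout arrays, and the 3 knockout arrays had the widest SDs (2.26 to 2.29). The difference between groups also moved with brightness. Its median was -0.22 in the dimmest tertile of genes by mean signal, -0.09 in the middle tertile and 0.30 in the brightest, and -0.09, -0.08 and 0.13 without wild-type replicate 1. As a guide to dim signal, the 95th percentile of 1190 olfactory and vomeronasal receptor genes was 6.76 in wild-type replicate 1 and 5.27 to 5.59 in the other arrays. This guide was chosen with the data known, and probes of different genes are not on a shared scale.

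All 7 members had a lower mean in knockout than in wild-type cells. Hlf and Mecom were lower by more than 2-fold, Prdm16, Zfp467 and Meis1 by 1.5- to 1.61-fold, and Mllt3 and Nkx2-3 by less. For the first 5 the 3 knockout values all lay below the 3 wild-type values, while Mllt3 and Nkx2-3 overlapped between the groups. That order held for 15.4% of all genes. It held for 21.2% of the middle tertile by mean signal, where Mecom, Prdm16 and Zfp467 lie. In the brightest tertile, where Hlf and Meis1 lie, 2.14% had it. In bulk RNA, fewer cells that express a gene and less RNA per cell cannot be told apart.

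**Figure D1:**
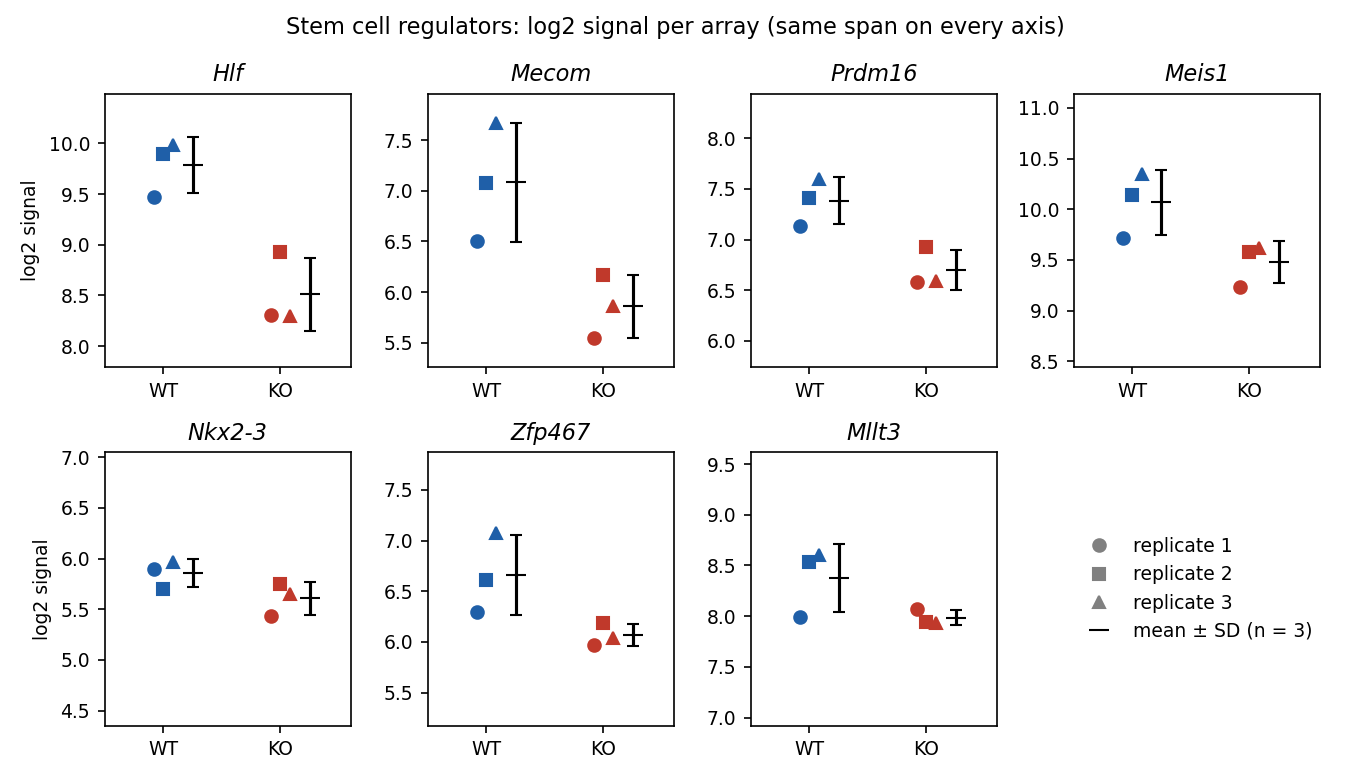
Log2 signal of each member in the 3 wild-type (WT, blue) and 3 p65 knockout (KO, red) arrays, with marker shape for the replicate number and bars for the mean ± SD (n = 3). Every axis spans the same number of log2 units, and the groups are apart for 5 members but overlap for Nkx2-3 and Mllt3. Knockout values all lay below wild-type values for 15.4% of all genes.

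Hlf had log2 signals of 9.47, 9.90 and 9.98 in the wild-type arrays and 8.31, 8.93 and 8.30 in the knockouts, replicates 1 to 3 in order. The highest knockout value, replicate 2, lay 0.54 below the lowest wild-type value, replicate 1. The means were 9.78 ± 0.28 and 8.51 ± 0.36 (SD, n = 3 each), a log2 fold change of -1.27 (SE 0.22) or a 2.41-fold lower level. It was -1.43 without wild-type replicate 1. Among the 6646 genes in the brightest tertile by mean signal, 3 had a lower fold change, with or without that array. Hlf was chosen on this difference, so its rank is a description only.

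Mecom had 6.50, 7.07 and 7.67 in the wild-type arrays and 5.55, 6.17 and 5.86 in the knockouts. Wild-type values of Mecom were widely spread (7.08 ± 0.58, SD, n = 3), and the knockout mean was 5.86 ± 0.31, with 0.33 between the nearest values of the groups. The log2 fold change was -1.22 (SE 0.29), a 2.33-fold lower level, and -1.51 without wild-type replicate 1. Its lowest values in each group, both from replicate 1, were below the olfactory and vomeronasal guide of their arrays, so the size of this difference is less certain than that of Hlf. Mecom produces the long form with the PR domain and a shorter form from an inner start, both shown above by sequence. The row left out shares 1 listed transcript with the row kept and lists 2 others. It read 5.85, 5.77 and 6.03 in the wild-type arrays and 5.18, 5.58 and 5.33 in the knockouts, which also did not overlap, with a smaller log2 fold change of -0.52. Averaging both rows gave -0.87 for the gene.

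Prdm16, the paralog of Mecom, had 7.14, 7.41 and 7.60 in the wild-type arrays and 6.58, 6.93 and 6.59 in the knockouts. The groups were 0.21 apart at their nearest, with means of 7.38 ± 0.23 and 6.70 ± 0.20 (SD, n = 3 each). Its log2 fold change was -0.69 (SE 0.17), or -0.81 without wild-type replicate 1. Prdm16 was above the dim-signal guide in all 6 arrays.

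Meis1 had 9.72, 10.14 and 10.35 in the wild-type arrays and 9.24, 9.58 and 9.62 in the knockouts. Wild-type replicate 1 was only 0.10 above the highest knockout value, so this separation is narrow. The means were 10.07 ± 0.32 and 9.48 ± 0.21 (SD, n = 3 each), with a log2 fold change of -0.59 (SE 0.20) and of -0.76 without wild-type replicate 1. In the brightest tertile, 49 of 6646 genes had a lower fold change than Meis1, and 129 had a lower one than Mllt3. For the members in the middle tertile the numbers were 10 for Mecom, 174 for Prdm16, 278 for Zfp467 and 1911 for Nkx2-3. These ranks too are a description only.

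Mllt3 had 7.99, 8.54 and 8.60 in the wild-type arrays and 8.07, 7.95 and 7.94 in the knockouts. Wild-type replicate 1 lay within the knockout range, which was narrow (7.99 ± 0.08, SD, n = 3). The log2 fold change was -0.39 (SE 0.19) with all arrays. Without wild-type replicate 1 it was -0.59, with 0.46 between the nearest values of the groups. Mllt3 was thus a member for which 1 array decided whether the groups overlapped.

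Zfp467 had 6.29, 6.61 and 7.08 in the wild-type arrays and 5.97, 6.19 and 6.04 in the knockouts. The groups were 0.11 apart at their nearest, and its wild-type spread (SD 0.39) was wider than its knockout spread (SD 0.11). The log2 fold change was -0.59 (SE 0.21), or -0.78 without wild-type replicate 1, and the value of that array lay below its dim-signal guide. Nkx2-3 had 5.89, 5.701 and 5.97 in the wild-type arrays and 5.43, 5.75 and 5.65 in the knockouts. Its groups overlapped with or without wild-type replicate 1, and the log2 fold change of -0.24 (SE 0.15) was the smallest of the 7. It was below the dim-signal guide in replicate 1 of both groups.

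The median log2 fold change of the 7 members was -0.59, against -0.04 over all 19938 genes. The medians were -0.78 and -0.03 without wild-type replicate 1. Knockout values all lay below wild-type values for 5 of the 7 members, where 15.4% of all genes had that order, and for 6 of 7 without wild-type replicate 1, where 21.5% had it. In the fit over all genes 1 member, Hlf, passed a limma adjusted p of 0.05, where 0.13% of all genes were called lower. With the replicate number as a block 2 passed, Hlf and Mecom, against 0.451%. Without wild-type replicate 1 the number was 6, all but Nkx2-3, against 1.38%. Since the same contrast chose the members, nothing is read from these counts.

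**Figure D2:**
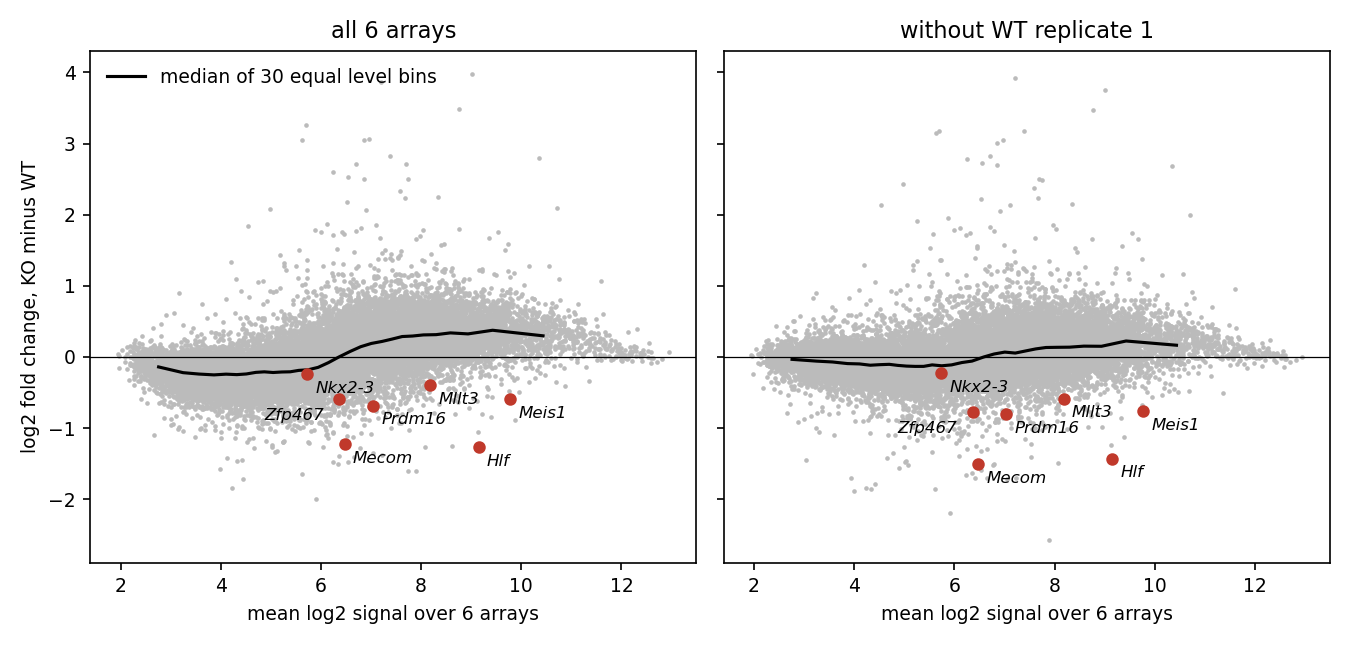
Log2 fold change (KO minus WT) of 19938 genes (grey) against mean log2 signal over the 6 arrays, with all arrays (left) and without wild-type replicate 1 (right); red points are the members and the black line is the median in 30 equal bins of signal. The line rises with signal on the left and less on the right, and Hlf and Meis1 lie below it at the bright end.

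Wild-type replicate 3 gave the highest of the 6 values for all 7 members, as it did for 12.6% of all genes. Knockout replicate 1 was the lowest of the 6 arrays for 5 members, against 12% of all genes. Among the knockouts, replicate 2 was the highest for 5, namely Hlf, Mecom, Prdm16, Nkx2-3 and Zfp467, against 32.5% of all genes. Because the members were chosen for lower knockout values in these arrays, this order is a description only. Averaged over the 7 members, each relative to its own mean, the arrays stood at 0.04, 0.38 and 0.65 in the wild-type arrays and at -0.51, -0.18 and -0.39 in the knockouts.

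By Pearson correlation with Hlf over the 6 arrays, among 9968 genes at or above the median signal, the 6 most alike genes were Robo4 (0.996), Eya2 (0.995), Bcl9l (0.992), Prdm16 (0.9895), Tgm2 (0.9887) and Epb41l4b (0.983). Of the members compared, Prdm16 was therefore the most like Hlf, and Mecom ranked 38th with 0.949. Nkx2-3 lay below the median signal and was not compared. Zfp467 had 0.894, Meis1 0.893 and Mllt3 0.789, the last rising to 0.914 without wild-type replicate 1. Robo4, a receptor gene of endothelium and stem cells, read 6.42, 6.68 and 6.86 in the wild-type arrays and 5.48, 6.07 and 5.53 in the knockouts. Eya2 read 7.58, 7.98 and 8.15 in the wild-type arrays and 6.70, 7.23 and 6.79 in the knockouts. The correlations rest on 6 arrays in 2 groups and share the difference between them, and 1.14% of the genes compared had a coefficient over 0.9.

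**Figure D3:**
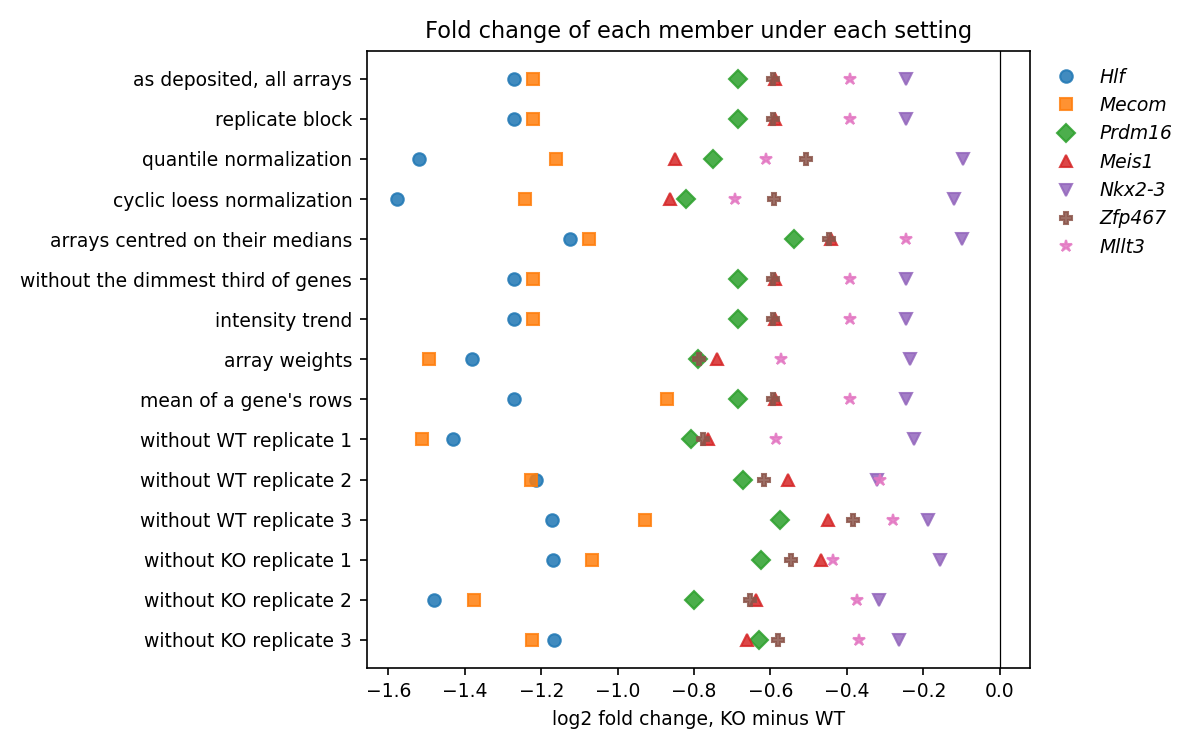
Log2 fold change (KO minus WT) of each member on the deposited values and under 14 other settings, 1 row per setting and 1 symbol per gene. Every point lies below 0, with Hlf between -1.58 and -1.13 and Nkx2-3 between -0.32 and -0.10.

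Partners, relatives and targets of the members were read from the same fit. They make up 8 lists assembled from general knowledge, of which 83 of 89 genes were measured. Of these 83 genes 1 was called higher and 0 lower (limma adjusted p under 0.05), or 1.2% against 0.818% of all genes. An unadjusted p under 0.05 was found for 16 of the 83, and for 4309 of all 19938 genes. Counts at an unadjusted p in the lists below stand against that all-gene number. With the replicate block the number called was again 1, against 1.87%. Without wild-type replicate 1 it was 1 higher and 2 lower, or 3.61% against 4.66%. The median log2 fold change of the 83 genes was -0.03, close to that of all genes, and -0.13 without wild-type replicate 1.

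The gene that rose was Nfil3, a bZIP repressor that binds the same DNA sites as HLF and the other PAR bZIP activators. It read 4.61, 5.05 and 4.91 in the wild-type arrays and 6.07, 6.55 and 5.80 in the knockouts, so all knockout values lay above all wild-type values. The log2 fold change was 1.28 (SE 0.22, limma adjusted p = 0.0476), a 2.43-fold higher level. The adjusted p ran from 0.0125 to 0.231 over 14 alternatives and passed in 8. It was lost with quantile normalization (0.0665) and without wild-type replicate 2 (0.0681), wild-type replicate 3 (0.0868), or knockout replicates 1 (0.231), 2 (0.217) or 3 (0.11), while the log2 fold change stayed between 1.08 and 1.46. Wild-type values of Nfil3 lay below the dim-signal guide in all 3 arrays, so the size of the rise is uncertain. The PAR bZIP genes themselves, Tef and Dbp, did not pass, with log2 fold changes of -0.01 and 0.15 (limma adjusted p = 0.951 and 0.487).

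**Figure D4:**
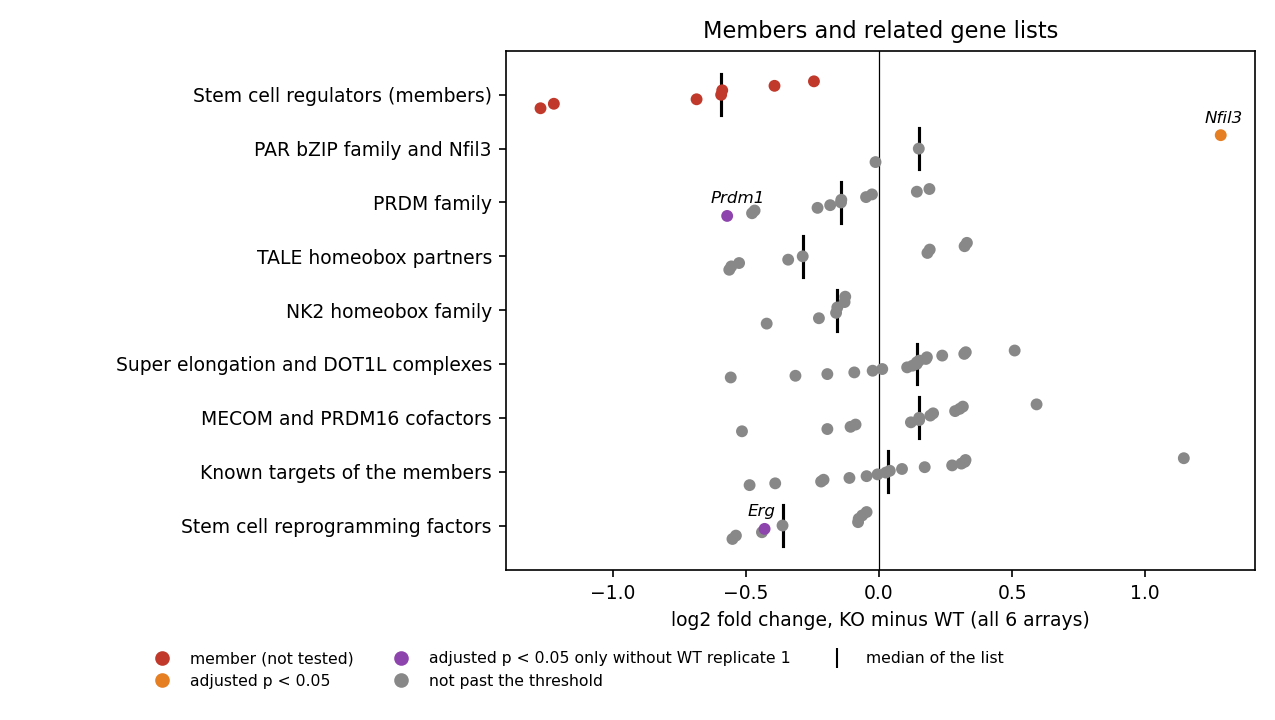
Log2 fold change (KO minus WT, all 6 arrays) of the members (red, not tested) and of the genes of 8 related lists, with the median of each list as a black bar. Nfil3 (orange) is past the threshold with all arrays, and Prdm1 and Erg (purple) are not, but pass without wild-type replicate 1. Most related lists have genes on both sides of 0.

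In the PRDM family 11 other genes were measured and 0 passed limma, with 3 at an unadjusted p under 0.05. The median log2 fold change was -0.14, but 0.006 with quantile normalization and 0.003 with median centring. Prdm1, which encodes the plasma cell regulator BLIMP1, had a log2 fold change of -0.57 and did not pass with all arrays (limma adjusted p = 0.102). It passed without wild-type replicate 1 (-0.46, adjusted p = 0.0444) and with array weights (0.0249), and the highest adjusted p over 13 alternatives was 0.377. Prdm1 had signals of 4.19 to 4.55 in the wild-type arrays and 3.75 to 3.79 in the knockouts, all below the dim-signal guide. The TALE homeobox list, the partners of MEIS1, held 9 measured genes with 0 called, 2 at an unadjusted p under 0.05 and a median of -0.29. With all arrays its largest values were those of Tgif2 (-0.56) and Meis2 (-0.55). Meis2 was below the dim-signal guide in all 6 arrays and had -0.21 without wild-type replicate 1, against -0.63 for Tgif2. All 6 other NK2 homeobox genes had negative fold changes with a median of -0.16, 0 called and 1 at an unadjusted p under 0.05, but only 3 were negative with quantile normalization or cyclic loess and 4 with median centring. Nkx2-5, the heart regulator gene (-0.42), and Nkx2-6 (-0.23) had the largest, against -0.24 for Nkx2-3, and Nkx2-6 was above the dim-signal guide in 1 wild-type and 2 knockout arrays.

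The super elongation and DOT1L complexes, through which MLLT3 acts, had 17 measured genes with 0 called and 2 at an unadjusted p under 0.05. The median was 0.14, but its sign turned with quantile normalization (-0.07), cyclic loess (-0.14) and without wild-type replicate 1 (-0.05). Among them Aff1, a scaffold of the elongation complex, had 0.51, and Ell3 had -0.56 but was below the dim-signal guide in all 6 arrays, so its size is uncertain. Dot1l, the histone methyltransferase itself, had 0.18, and Mllt1, the closest relative of Mllt3, had 0.11. Both turned without wild-type replicate 1, to -0.18 and -0.03. Cofactors of MECOM and PRDM16 gave a median of 0.15 over 13 genes, and -0.001 without wild-type replicate 1, with 0 called and 2 at an unadjusted p under 0.05. Cebpb had 0.59, and Ppargc1a had -0.51 but was below the dim-signal guide in all 6 arrays. The corepressor genes Ctbp1 and Ctbp2 had 0.19 and 0.12, and -0.02 and -0.004 without wild-type replicate 1.

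Genes described as targets of the members had a median log2 fold change of 0.03 over 16 measured genes (-0.11 with quantile normalization, -0.12 with cyclic loess and without wild-type replicate 1, and 0.18 with median centring), with 0 called and 3 at an unadjusted p under 0.05. Trib2, a pseudokinase gene, had 1.15 (SE 0.27, limma adjusted p = 0.0915), with 6.54, 7.23 and 6.93 in the wild-type arrays and 8.21, 7.48 and 8.44 in the knockouts. Angpt1, the angiopoietin 1 gene, had -0.49. Gata2, a stem cell factor gene linked to MECOM, had 0.32, and 0.03 without wild-type replicate 1. In the list of factors used to reprogram cells to stem cells all 9 measured genes were negative, with a median of -0.36, 0 called and 2 at an unadjusted p under 0.05. All 9 were also negative with cyclic loess and without wild-type replicate 1, against 7 with quantile normalization and 5 with median centring. Erg, an ETS factor gene, had -0.43 with all arrays (limma adjusted p = 0.244) and fell by 0.62 without wild-type replicate 1 (0.0419). It also passed with cyclic loess (0.0427) and array weights (0.0355), and the highest adjusted p over 14 alternatives was 0.523. Mycn had -0.54 and Runx1t1 -0.55, neither of which passed with all arrays, and Runx1t1 was below the dim-signal guide in all 6. Like Erg, Mycn passed with cyclic loess and with array weights.

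Markers of other cells that the gate could hold were read from the same fit, in which 0.818% of all genes were called. Marker calls made without wild-type replicate 1 stand against 4.66% of all genes, here and in the lists below. Those made with the replicate block stand against 1.87%. Of 12 measured genes of granulocyte and monocyte precursors 9 rose and 0 fell (limma adjusted p under 0.05), among them Elane and Prtn3, which encode granule proteases. Their summed linear signal was 3968 to 5028 in the wild-type arrays and 15200 to 17690 in the knockouts. Of 8 mast cell and basophil genes 3 rose, or 4 with the replicate block, with sums of 1611 to 2699 and 3215 to 3937. In that list 2 genes had negative log2 fold changes, Tpsb2 (-0.34) and Cma1 (-0.23). Both were dim (mean signals of 5.15 and 5.28), and neither passed. Gata2, the brightest of the 8, is part of these sums and had 0.32, or 0.03 without wild-type replicate 1. Of 15 lymphoid genes 1 rose, Nkg7, and Cd3d fell when wild-type replicate 1 was left out. Lymphoid sums were 2081 to 2850 and 3642 to 4419, but 1168 to 1637 and 1180 to 1958 without Nkg7, which overlap. The median log2 fold change of the lymphoid list was 0.14, or -0.02 without wild-type replicate 1.

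Sums overlapped between the groups for the other lists. They were 611 to 907 and 701 to 809 for mature neutrophil and macrophage genes, with 0 of 11 called by limma and 2 at an unadjusted p under 0.05. For endothelium and stroma they were 836 to 1121 and 818 to 893, with 0 of 12 called and 1 at an unadjusted p under 0.05, although Emcn fell with the replicate block. Erythroid and megakaryocyte genes gave 3319 to 4991 and 4586 to 5661, with 0 of 9 called and 3 at an unadjusted p under 0.05. Leaving out wild-type replicate 1, Tfrc rose and Ppbp fell, and with the replicate block Tfrc rose.

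Genes tied to the stem and progenitor gate gave sums of 3785 to 5012 in the wild-type arrays and 4187 to 4976 in the knockouts, with 0 of 10 called by limma and 4 at an unadjusted p under 0.05. Cd34 and Kit, the brightest of the 10, weigh most in these sums. All knockout values lay below all wild-type values for Esam (-0.91), Fgd5 (-0.71) and Procr (-0.69), an order found for 15.4% of all genes. Cd48, which marks cells beyond the stem cell stage, had the reverse order (0.97). In the list 6 of 10 genes had negative log2 fold changes. Without wild-type replicate 1, where 4.66% of all genes were called, Cd48 rose, and Esam, Fgd5, Procr and Kit fell. With the replicate block, where 1.87% were called, Cd48 rose and Esam fell. Ly6a, the Sca-1 gene, was not analysed here. Whether a different mix of cells within the gate has a part in the lower values of the members was not tested.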

How the data were processed

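Values are log2 signals of 35557 rows on 6 arrays, as the authors deposited them. RMA, Partek and Affymetrix Expression Console appear, with no version, in the submitters' processing notes. The design text names an exon array, while the annotation given for the rows is that of a gene array. Array medians and SDs differ, and how far the arrays were normalized together is not known. Rows with 1 gene symbol (21789) were used, and of several rows of a gene the one with the highest mean was kept.

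Titles give each sample's group and replicate number, 3 arrays against 3. The fit used limma 3.58.1 under R 4.3.3, had a group term alone and left 4 residual degrees of freedom. Two-sided p-values were adjusted over all 19938 genes by Benjamini-Hochberg, with a threshold of 0.05. Fold changes are knockout minus wild-type on the log2 scale. Each group has 3 arrays, and this number limits the precision. The fit was tested on 5 simulated data sets. Their noise was independent between arrays and genes, with the same SD in both groups, no outlying array and no trend with brightness. In them the fit recovered 41.2% of log2 changes of 1 and 88.8% of changes of 2, with 3.4 false calls per run. The real arrays are less simple, so these rates may not hold for them. Even in the simulated data some changes were missed, so a gene that did not pass can still differ. Same-numbered arrays deviated together from their group means (r = 0.368, 0.119 and 0.162 for numbers 1 to 3, all above 0.1), so a replicate block on the number was fitted too, and its result stands beside any call it changes. Numbers 2 and 3 did not stand out as pairs, since wild-type 2 with knockout 3 had 0.195 and wild-type 3 with knockout 2 had 0.183. What a number marks is not stated in the labels.

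Named genes are the 7 members, genes of the related lists past the threshold with all arrays or without wild-type replicate 1 (otherwise the 2 with the largest changes), and the 6 genes most correlated with Hlf. Tef, Dbp, Dot1l, Mllt1, Ctbp1, Ctbp2, Gata2, Mycn, Runx1t1 and the marker genes were named after their values were seen. The members and all lists were chosen with earlier results of these data known. Promoter windows come from RefSeq's table for GRCm38.p6. Alternatives were the replicate block, 3 other scalings, a filter on dim genes, an intensity trend, array weights, the mean of a gene's rows and leaving out each array.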

Additional observations from a re-analysis of the deposited data

How the results depend on the processing

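All 7 members kept a negative log2 fold change under all 14 alternatives, with ranges of -1.58 to -1.13 for Hlf, -1.51 to -0.87 for Mecom, -0.82 to -0.54 for Prdm16, -0.86 to -0.44 for Meis1, -0.79 to -0.38 for Zfp467, -0.69 to -0.25 for Mllt3 and -0.32 to -0.10 for Nkx2-3. The number of genes called by limma over all genes, 163 with all arrays (137 higher, 26 lower), was 372 with the replicate block, 104 with quantile normalization, 505 without the dimmest tertile of genes (fewer genes tested) and 1599 with array weights. It ran from 21 without knockout replicate 2 to 929 without wild-type replicate 1. Cyclic loess gave 149 higher and 70 lower calls. Median centring of the arrays, which adds 0.146 to every fold change, gave 186 higher and 6 lower. The number of members called, 1 with all arrays, was 2 with the replicate block, 4 with cyclic loess and 6 with array weights. It was 0 after median centring, where 3 members and 4399 of all 19938 genes had an unadjusted p under 0.05. Leaving out single arrays gave 6 without wild-type replicate 1 and 0 without any other. In those other fits 3 to 5 members, and 2280 to 5118 of all genes, had an unadjusted p under 0.05. Since the same contrast chose the members, nothing is read from their counts. The number of related genes called, 1 with all arrays, was 3 with cyclic loess and 9 with array weights. With quantile normalization it was 0, with 20 at an unadjusted p under 0.05 against 3288 of all genes. The number of related genes called was 3 without wild-type replicate 1 and 0 without any other array (11 to 20 at an unadjusted p under 0.05). The cause of these changes was not tested.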
